A study of Mus musculus with 6 samples.

Results

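The 10 genes described here carry glucose and lactate across the cell membrane or act on the way between glucose, pyruvate and lactate: Slc2a1, Slc16a1, Hk1, Pfkm, Aldoc, Aldoa, Pkm, Ldha, Ldhb and Pdk4. They were chosen by name as genes of glucose and lactate metabolism, and all 10 were found among the 16411 genes listed in the deposited table of unique molecular identifiers (UMIs, tags that count RNA molecules). The samples were single cells of the hypothalamus, 1 male ob/ob mouse of 11 weeks per library, killed 5 days after 3 µg of the FGF1 variant R50E was given into a cerebral ventricle. Cells of 4 such mice, called 3, 4, 30 and 34 in the labels, were in the table, 20151 in all. Each mouse in these comparisons was ob/ob and received R50E, so the question asked of the data was how the 10 genes differ between cell types, and no comparison with another treatment was made.

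Cells take up glucose through facilitative transporters such as GLUT1, the product of Slc2a1, and split it by glycolysis to pyruvate. Lactate dehydrogenase interconverts pyruvate and lactate, and monocarboxylate transporters such as MCT1, the product of Slc16a1, move lactate between cells and blood. In the brain GLUT1 is known from the capillary endothelium, and astrocytes are known for glycolysis, lactate release and glycogen stores. Tanycytes, specialised ependymal cells at the base of the third ventricle, are known as glucose-sensing cells of the hypothalamus.

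The cell types were those assigned by the authors: 5909 astrocytes, 4490 tanycytes, 1530 ependymal cells, 1261 oligodendrocyte precursor cells, 681 committed oligodendrocyte precursors, 4566 oligodendrocytes, 1266 endothelial cells, 380 microglia and 68 vascular leptomeningeal cells. UMIs were summed per mouse and type, and a level is given as UMIs of the gene per 1000000 UMIs of that sum (counts per 1000000, CPM), as mean ± SD over 4 mice. The 4 mice gave 7386, 3180, 3005 and 6580 cells with 8856079, 3898209, 3299971 and 7916843 UMIs, and the sums ranged from 44756 UMIs in microglia of mouse 4 to 2319177 UMIs in oligodendrocytes of mouse 3, the vascular leptomeningeal sums apart. The summed level of 5 endothelial markers, Cldn5 and Pecam1 among them, was 8629 CPM in endothelial cells and at most 159.8 CPM in the other 7 types tested. The marker lists of the other assigned types were also highest in their own types, except that the list of oligodendrocyte precursor cells summed to 3164 CPM in committed precursors against 3092 CPM in its own type, mostly by Gpr17. Single markers could go against their list, Scn7a of the tanycyte list being at 90.1 CPM in ependymal cells and 29.9 CPM in tanycytes. The endothelial label also held 3482 CPM of 5 mural cell markers, so its levels are those of a vascular mixture. Markers of other types were counted in each type: 5 oligodendrocyte genes, at 45612 CPM in oligodendrocytes, summed to 2101 CPM in ependymal cells and 3801 CPM in microglia. Whether such UMIs were free RNA or RNA of the cells themselves was not tested. A list of 5 neuronal markers lay between 140 and 338 CPM in the 8 types, and red blood cell genes were highest in microglia at 814 CPM. Of 19954 distinct cell barcodes, 194 occurred in more than 1 of the 4 libraries.

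On GRCm38, the mouse build listed in the processing notes of the submitters, Slc2a1 lies on the forward strand at chr4:119108711-119137983 and Slc16a1 on the forward strand at chr3:104638668-104658462. Hk1 lies on the reverse strand at chr10:62268855-62379908, Pfkm on the forward strand at chr15:98092589-98132451, Aldoc on the forward strand at chr11:78322968-78327781 and Pkm on the forward strand at chr9:59656368-59679375. Aldoa lies on the reverse strand at chr7:126795234-126800751, and the annotation gives the same name to a second entry just upstream. Ldha lies on the forward strand at chr7:46841475-46855627, Ldhb on the reverse strand at chr6:142490249-142507957 and Pdk4 on the reverse strand at chr6:5483351-5496309. The 3′ end that this assay reads was shared with other transcripts for 4 of the genes: of the 31-base words in the last 400 bases of their transcripts, 29.1% for Ldha, 40.9% for Ldhb, 28.1% for Aldoa and 33.1% for Pkm also occur in transcripts of other genes, among them Ldha-ps2 and Aldoart1. The counts of these 4 genes are therefore less certain than those of the other 6, which shared none.

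The promoters of 4 genes are shown because the results turn on these pairs: both transporters, which were highest in endothelial cells, and both lactate dehydrogenase genes, whose shares are described by type. Each line gives the 250 bases before a RefSeq start site (GRCm38.p6), 5′ to 3′ on the strand of the gene, and capitals mark the letters ACGTG or GCGTG on either strand, the core of the element bound by hypoxia-inducible factors.
Slc2a1: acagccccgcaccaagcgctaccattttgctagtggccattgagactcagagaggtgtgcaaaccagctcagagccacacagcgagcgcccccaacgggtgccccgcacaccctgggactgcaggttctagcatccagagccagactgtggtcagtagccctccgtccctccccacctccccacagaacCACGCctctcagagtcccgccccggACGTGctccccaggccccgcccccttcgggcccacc
Slc16a1: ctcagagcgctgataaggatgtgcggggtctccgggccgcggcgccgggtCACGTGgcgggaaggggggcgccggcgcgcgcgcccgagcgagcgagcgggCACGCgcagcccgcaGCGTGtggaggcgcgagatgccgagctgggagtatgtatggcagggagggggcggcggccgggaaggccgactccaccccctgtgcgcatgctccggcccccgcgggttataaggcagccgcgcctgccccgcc
Ldha: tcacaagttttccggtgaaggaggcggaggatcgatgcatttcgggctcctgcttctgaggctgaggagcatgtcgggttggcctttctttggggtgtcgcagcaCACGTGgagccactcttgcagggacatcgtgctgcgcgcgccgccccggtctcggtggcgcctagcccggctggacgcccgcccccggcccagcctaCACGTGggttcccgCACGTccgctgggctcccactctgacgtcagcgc
Ldhb: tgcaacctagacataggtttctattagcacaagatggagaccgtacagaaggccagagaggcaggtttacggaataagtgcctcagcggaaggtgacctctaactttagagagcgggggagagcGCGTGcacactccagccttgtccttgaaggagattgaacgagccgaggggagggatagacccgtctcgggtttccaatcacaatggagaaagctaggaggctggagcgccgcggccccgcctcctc

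These windows are chr4:119108495-119108744 for Slc2a1, chr3:104638414-104638663 for Slc16a1, chr7:46845554-46845803 for Ldha (the first of 2 listed start sites) and chr6:142507958-142508207 for Ldhb, which is read on the reverse strand. The core letters stand in 3 separate stretches in the Ldha window, beginning 145, 48 and 34 bases before the start. They stand in 3 stretches in the Slc16a1 window, in 2 in the Slc2a1 window, beginning 61 and 36 bases before the start, and in 1 in the Ldhb window. The same letters occurred in 15 of the 19 windows listed for the 10 genes, with at least 1 window for each gene, and in 38.6% of all 32851 promoter windows of that length. Some windows of Pfkm and of Aldoa overlap and hold the same stretch, so the 15 windows are not separate matches. The G and C content of the listed windows ran from 36.4% (Pfkm) to 76.4% (Slc16a1), and that of the windows shown from 56.4% to 76.4%. Over all windows the median was 52.4%. The part of base content in these shares was not tested. The GC box GGGCGG was found in 7 of the 19 windows and in 32.7% of all windows, CCAAT in 5 of the 19 and in 33.8% of all, and TATAAA in none of the 19 and in 12.4% of all. A match of letters is a description and not a bound site.

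Slc2a1 was highest in endothelial cells. Its level there was 1321, 1243, 1875 and 1269 CPM in mice 3, 4, 30 and 34, a mean of 1427 ± 300.2 (SD, n = 4) over 2328 UMIs. Each endothelial value lay above each value of the other 7 types, and mouse 30 stood above the other 3 endothelial values. Ependymal cells came next with 173, 315, 255 and 303 CPM (mean 262 ± 64.4, SD, n = 4). Astrocytes held 131, 121, 150.1 and 121 CPM (mean 131 ± 13.8, SD, n = 4), below each of the ependymal values. Tanycytes, which border the same ventricle as the ependymal cells, held 51.1, 55.6, 61.1 and 54.9 CPM, less than each astrocyte value. Oligodendrocytes had 61.6 ± 9.69, microglia 45.8 ± 32.7, oligodendrocyte precursor cells 35.2 ± 14.8 and committed precursors 32.4 ± 10.2 CPM (SD, n = 4), with 10 to 12 UMIs per mouse in oligodendrocyte precursor cells and none in microglia of mouse 4. Down this order, endothelial cells, ependymal cells, astrocytes, oligodendrocytes and tanycytes each differed from the next (edgeR adjusted p from 1.03e-13 to 0.0228). Tanycytes did not differ from microglia beyond their spread, nor did both precursor types from each other (edgeR adjusted p = 0.888 and 0.985), and microglia and oligodendrocyte precursor cells were not tested against each other because the gene was too low there.

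Slc16a1 followed the same order at its upper end. Endothelial cells held 142, 282, 186 and 159 CPM (mean 192 ± 62.4, SD, n = 4), with mouse 4 above the others. Ependymal cells held 90.5, 92.4, 103 and 81.8 CPM, each below the lowest endothelial value. Oligodendrocytes, in which MCT1 is known from work on the supply of axons, held 62.5, 62.5, 45.3 and 59.6 CPM (mean 57.5 ± 8.26, SD, n = 4). Astrocytes at 47.4 ± 11.6 and tanycytes at 45.5 ± 5.05 CPM (SD, n = 4) did not differ (edgeR adjusted p = 0.908). Oligodendrocyte precursor cells at 23.6 ± 4.70, microglia at 19.7 ± 15.5 and committed precursors at 11.6 ± 10.1 CPM were lowest, on 32, 7 and 15 UMIs, too few for a test between neighbours. Over the 8 types the profile of Slc16a1 was close to that of Slc2a1 (Pearson r = 0.90 over 8 type means, which share libraries and depth, on the log2 scale).

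Since free RNA of endothelial cells could add UMIs to other types, the level of Slc2a1 in each type was set beside that of the 5 endothelial markers. In ependymal cells Slc2a1 stood at 18.3% of its endothelial level, while the markers stood at 0.691% of theirs, a ratio of 26.5. In astrocytes the shares were 9.15% and 0.650%, and in oligodendrocytes 4.32% and 0.485%. In tanycytes they were 3.90% and 1.85%, a ratio of 2.11, and in oligodendrocyte precursor cells 2.47% and 1.31%. The share of the marker sum was below the Slc2a1 share in all 7 types. In tanycytes the single markers differed: Flt1 was at 4.58%, above Slc2a1, and the other 4 markers were at 0.386% to 1.37%. For Slc16a1 the ratio of the shares was 7.03 or more in each type. The part of free endothelial RNA in the levels of both transporters was not tested.

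**Figure D1:**
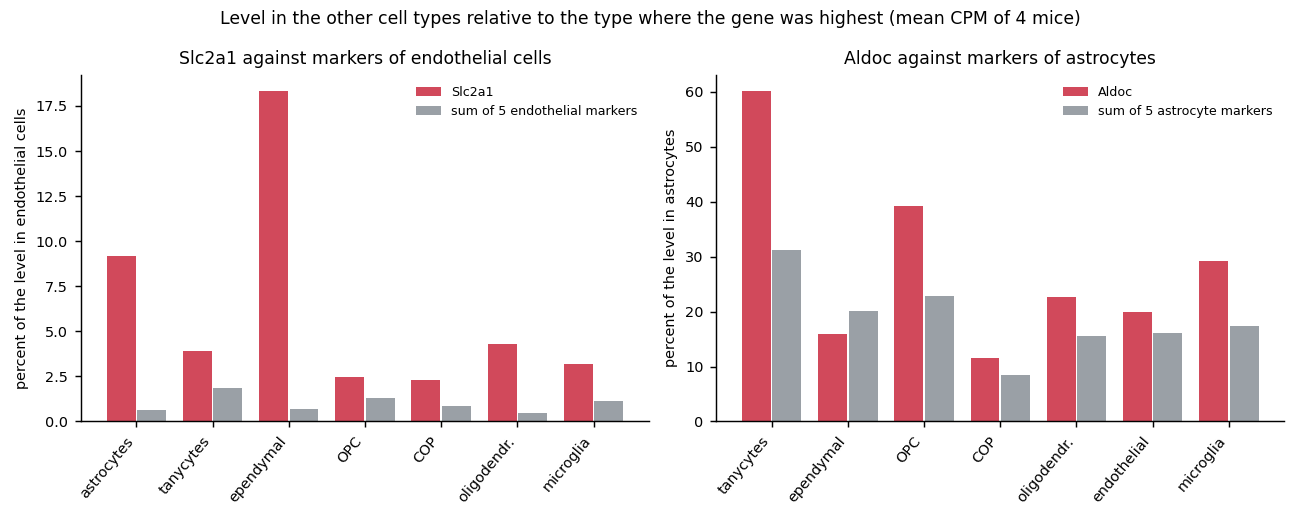
Bars give the mean level over 4 mice in each of 7 cell types (OPC, oligodendrocyte precursor cells; COP, committed precursors) as a percent of the level in endothelial cells (left, Slc2a1) or astrocytes (right, Aldoc), beside the summed level of 5 markers of that type in grey. Slc2a1 reached 18.3% of its endothelial level in ependymal cells with markers at 0.691%, whereas Aldoc in ependymal cells, at 16.0%, lay under the astrocyte markers at 20.1%.

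Of the glycolytic enzymes, Hk1, the hexokinase that traps glucose as its phosphate, varied 2.46-fold between the highest and the lowest type. Its level ran from 68.5 ± 12.1 CPM in astrocytes, 63.0 ± 9.83 in tanycytes and 61.2 ± 3.34 in ependymal cells to 28.6 ± 4.57 in oligodendrocytes and 27.9 ± 14.3 in committed precursors (SD, n = 4). Astrocytes held 54.9, 77.1, 80.1 and 62.0 CPM and oligodendrocytes 25.0, 25.6, 35.0 and 28.7 CPM, without overlap. Astrocytes, tanycytes, ependymal cells and oligodendrocyte precursor cells did not differ from their neighbours in this order (edgeR adjusted p from 0.187 to 0.719, and 0.575 between oligodendrocyte precursor cells and endothelial cells). Microglia at 49.4 CPM and oligodendrocytes at 28.6 CPM differed by 0.98 ± 0.43 on the log2 scale (edgeR adjusted p = 0.0490), on 20 microglial UMIs. Over all 25 pairs tested, 12 passed the adjusted p and 6 were also past a log2 fold change of 1 (edgeR), 5 of these with committed precursors as the lower type and 1 between oligodendrocytes and astrocytes.

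Pfkm, the muscle-type subunit of phosphofructokinase, was highest in astrocytes with 179, 176, 166 and 177 CPM, a mean of 175 ± 5.76 (SD, n = 4). Oligodendrocyte precursor cells held 94.1, 135, 72.2 and 82.6 CPM, each below the astrocyte values. Tanycytes held 73.9 ± 6.62, microglia 60.2 ± 25.7, endothelial cells 41.5 ± 8.97, oligodendrocytes 33.9 ± 5.39, ependymal cells 29.6 ± 7.46 and committed precursors 27.4 ± 13.0 CPM (SD, n = 4). Astrocytes differed from oligodendrocyte precursor cells (edgeR adjusted p = 2.87e-10). None of the 5 other steps down this order that were tested passed (edgeR adjusted p from 0.183 to 0.660), and 1 was too low to test.

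Aldoc, the brain-type aldolase that is a common astrocyte marker, was highest in astrocytes with 2453, 2462, 2556 and 2777 CPM, a mean of 2562 ± 151 (SD, n = 4) over 14162 UMIs. Tanycytes held 1335, 1435, 2202 and 1196 CPM (mean 1542 ± 451, SD, n = 4), each below the lowest astrocyte value. The tanycyte SD was 13.1 times that of counting error alone, the widest of any gene and type here, with mouse 30 highest and its 2090 UMIs spread over 682 of 851 tanycytes, at most 29 in 1 cell. Oligodendrocyte precursor cells had 1007 ± 85.2 CPM, microglia 749 ± 116, oligodendrocytes 583 ± 50.7, endothelial cells 508 ± 93.2, ependymal cells 409.5 ± 65.0 and committed precursors 295 ± 42.8 CPM (SD, n = 4). Oligodendrocyte precursor cells and microglia did not differ after normalization (log2 difference -0.015, edgeR adjusted p = 0.938), although their CPM ranges were apart. Each other step down this order passed (edgeR adjusted p from 6.89e-15 to 0.00951). The astrocyte markers Aqp4, Slc1a2, Slc1a3, Gja1 and Agt were not confined to astrocytes, and their sum in the other types was 8.54% to 31.3% of its astrocyte level. Aldoc was at 60.2% of its astrocyte level in tanycytes (markers at 31.3%), 39.3% in oligodendrocyte precursor cells (22.9%) and 29.2% in microglia (17.4%). It was at 22.7% in oligodendrocytes (markers at 15.6%) and 19.8% in endothelial cells (16.0%). In ependymal cells it was at 16.0%, under the 20.1% of the marker sum. The single markers there ranged from 7.50% for Agt and 12.9% for Slc1a3 through 17.5% for Slc1a2 to 35.0% for Gja1 and 84.7% for Aqp4, so whether Aldoc lay above or below them depended on the marker. How much of Aldoc in any type came from free astrocyte RNA was not tested. The Pfkm share in ependymal cells, 17.0% of its astrocyte level, likewise lay under that of the marker sum and within the range of the single markers.

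Aldoa, the widely expressed aldolase, was highest in tanycytes with 644, 589.8, 669.9 and 608 CPM (mean 628 ± 35.9, SD, n = 4). Astrocytes held 442, 482, 414 and 441 CPM, each below the lowest tanycyte value (edgeR adjusted p = 2.26e-06 for the step between them). Oligodendrocytes held 399.7, 391, 586 and 384 CPM, where mouse 30 stood apart and lay just under the lowest tanycyte value. Ependymal cells at 403 ± 42.6, endothelial cells at 347 ± 38.6, oligodendrocyte precursor cells at 335 ± 38.5, microglia at 227 ± 58.5 and committed precursors at 224 ± 70.5 CPM followed (SD, n = 4). Below astrocytes, the steps from oligodendrocytes to ependymal cells and from endothelial cells to oligodendrocyte precursor cells passed (edgeR adjusted p = 0.00339 and 0.0264). The others did not (edgeR adjusted p from 0.0647 to 0.802). Among these, oligodendrocyte precursor cells and microglia had a log2 difference of 0.067 although their CPM ranges were apart. Aldoc made up 85.2% ± 1.24 of the Aldoa and Aldoc UMIs in astrocytes, 75.0% ± 2.17 in oligodendrocyte precursor cells and 70.3% ± 4.66 in tanycytes (SD, n = 4). It made up 50.3% ± 3.98 in ependymal cells, so the 4 astrocyte shares, from 83.6% to 86.3%, and the 4 ependymal shares, from 46.4% to 53.9%, did not overlap. The ependymal share holds the Aldoc UMIs that lay under the marker sum, and the part of free astrocyte RNA in it was not tested. The microglial share, 76.5% ± 7.07, rested on 293 Aldoc and 95 Aldoa UMIs.

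Pkm, pyruvate kinase of the last glycolytic step, was the most even of the 10 genes. It ran from 402 ± 24.3 CPM in ependymal cells to 225 ± 15.2 CPM in oligodendrocytes (SD, n = 4), a ratio of 1.79. Of the 28 pairs of types tested, 12 passed an adjusted p of 0.05 and none also passed a log2 fold change of 1 (edgeR). For comparison, the ratio of the highest to the lowest type was 44.0 for Slc2a1, 16.6 for Slc16a1, 8.70 for Aldoc, 8.08 for Ldhb, 6.37 for Pfkm, 4.86 for Ldha, 2.80 for Aldoa and 2.46 for Hk1. The Ldha ratio depended on mouse 30. Without it the mean was 265 CPM in tanycytes and 35.9 CPM in oligodendrocytes, which makes the ratio larger.

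**Figure D2:**
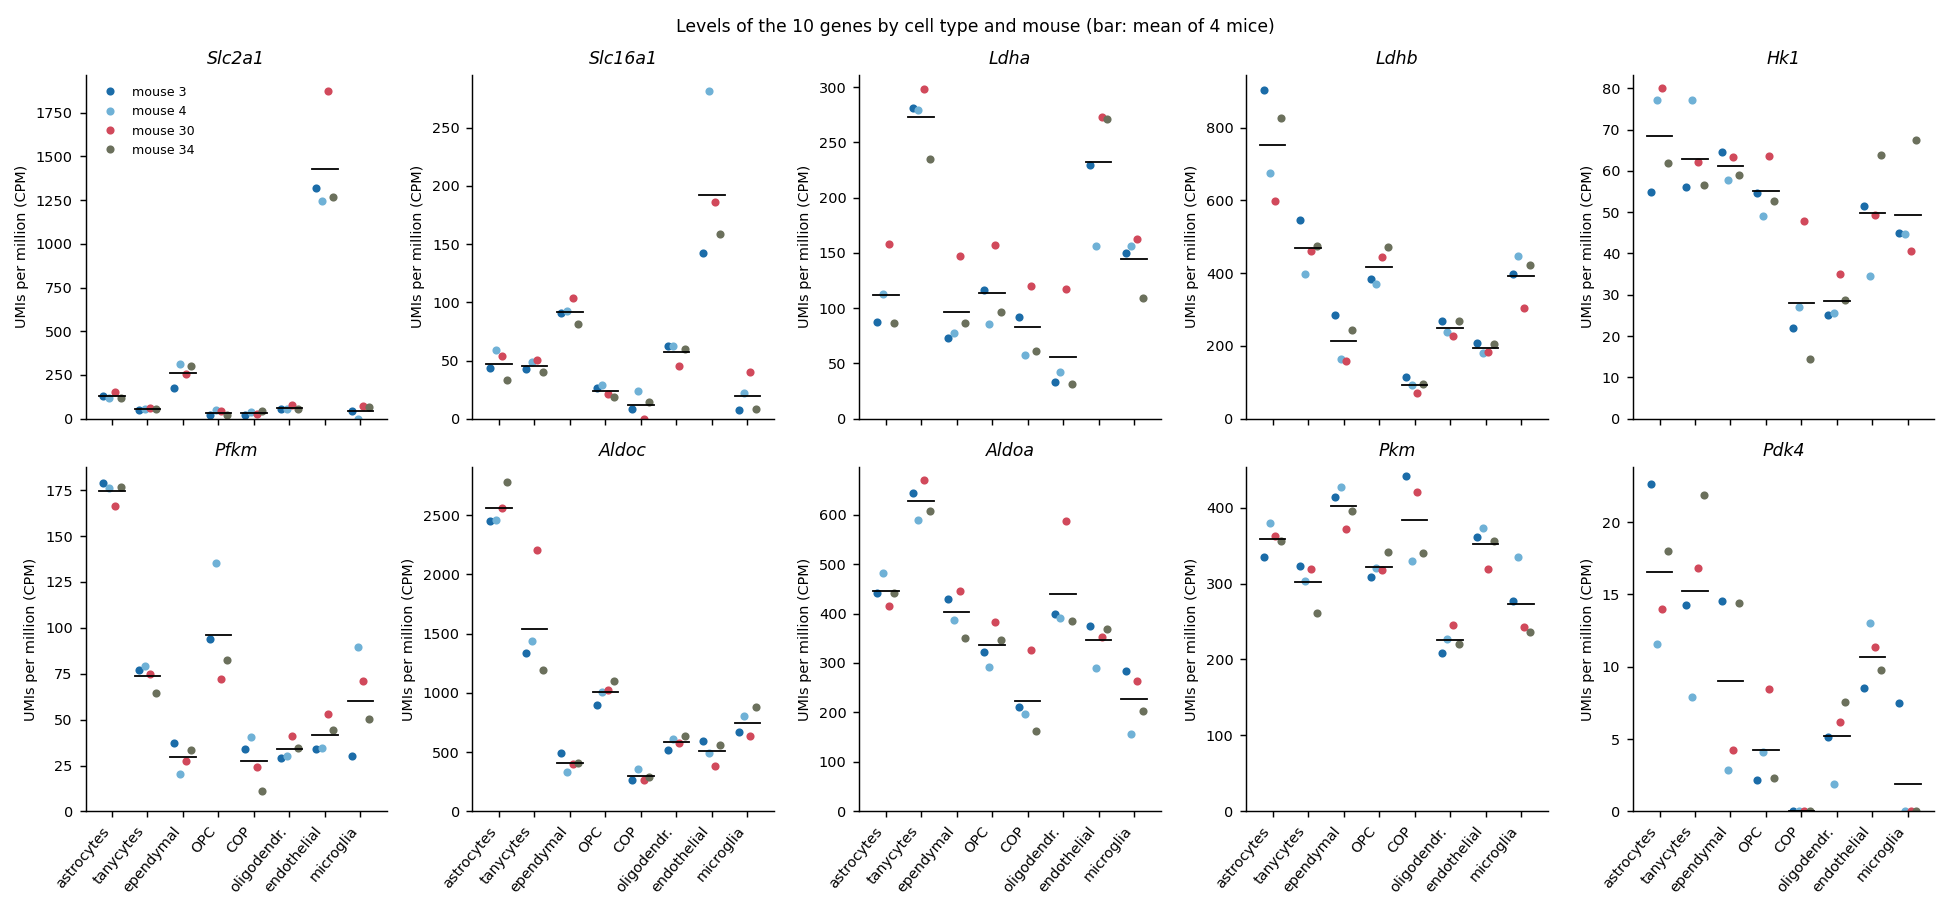
Each panel gives 1 gene, with the level in CPM on a linear axis from 0 for each of 8 cell types; points are the 4 mice and black bars their means. Slc2a1 and Slc16a1 are highest in endothelial cells, Aldoc, Pfkm and Ldhb in astrocytes, Ldha and Aldoa in tanycytes, and Pkm runs only from 225 to 402 CPM.

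Ldha, whose product is the subunit typical of muscle and of lactate-forming tissue, was highest in tanycytes with 281, 279, 298 and 235 CPM (mean 273 ± 26.8, SD, n = 4). Endothelial cells held 229.5, 156, 273 and 271 CPM and overlapped the tanycytes (edgeR adjusted p = 0.237). Microglia held 149.9, 156, 162 and 109.5 CPM on 56 UMIs. Oligodendrocyte precursor cells at 114 ± 31.4, astrocytes at 112 ± 33.3, ependymal cells at 96.2 ± 34.7 and committed precursors at 82.8 ± 29.0 CPM (SD, n = 4) did not differ at the 3 steps between them (edgeR adjusted p from 0.0727 to 0.305). Oligodendrocytes were lowest with 33.6, 42.6, 117 and 31.4 CPM, where the value of mouse 30 was 3.27 times the mean of the other 3 mice. Its 57 UMIs were spread over 51 of 473 oligodendrocytes, at most 2 in a cell.

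Ldhb, whose product is the subunit typical of heart and of lactate-using tissue, was highest in astrocytes with 904, 676, 598 and 827 CPM (mean 751 ± 139, SD, n = 4). Tanycytes held 547, 397, 461 and 473 CPM, each below the astrocyte values. Oligodendrocyte precursor cells at 418 ± 49.1 and microglia at 392 ± 62.2 CPM did not differ (edgeR adjusted p = 0.102). Oligodendrocytes held 250.2 ± 21.1, ependymal cells 213 ± 62.2 and endothelial cells 195 ± 14.7 CPM (SD, n = 4), the ependymal and endothelial levels not differing (edgeR adjusted p = 0.650). Committed precursors held 114, 91.7, 71.8 and 94.2 CPM, below each value of every other type tested.

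The share of Ldha in the UMIs of both lactate dehydrogenase genes is given as a description, with no test. Endothelial cells had the highest mean Ldha share of the Ldha and Ldhb UMIs, with 52.3%, 46.2%, 60.0% and 56.8% in mice 3, 4, 30 and 34 (mean 53.8% ± 6.01, SD, n = 4). Astrocytes had the lowest mean, with 8.86%, 14.3%, 20.9% and 9.51% (mean 13.4% ± 5.56, SD, n = 4). Tanycytes held 33.9%, 41.3%, 39.3% and 33.2%, above each astrocyte share and below each endothelial share. Committed precursors had 46.3% ± 11.1, ependymal cells 31.7% ± 12.0, microglia 27.2% ± 5.84, oligodendrocyte precursor cells 21.3% ± 4.11 and oligodendrocytes 17.7% ± 11.1 (SD, n = 4). Neither extreme stood apart from every type. Committed precursors of mouse 30 held 62.5%, above each endothelial share, and oligodendrocytes held 11.1%, 15.2%, 34.1% and 10.5%, overlapping the astrocytes. Mouse 30 had the highest share in 7 of the 8 types, tanycytes being the exception. With all UMIs of the 4 mice pooled, the share was 54.7% in endothelial cells (exact 95% binomial interval 51.0% to 58.3%) and 10.7% in astrocytes (9.84% to 11.6%), intervals that cover counting error only. Both genes share 3′ sequence with other transcripts, as given above, and the shares hold for UMIs, not for protein. Ldhb was at 25.9% of its astrocyte level in endothelial cells, where the astrocyte markers summed to 16.0% of theirs, at 28.3% in ependymal cells (markers at 20.1%) and at 12.4% in committed precursors (8.54%). The part of free astrocyte Ldhb in these shares was not tested.

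**Figure D3:**
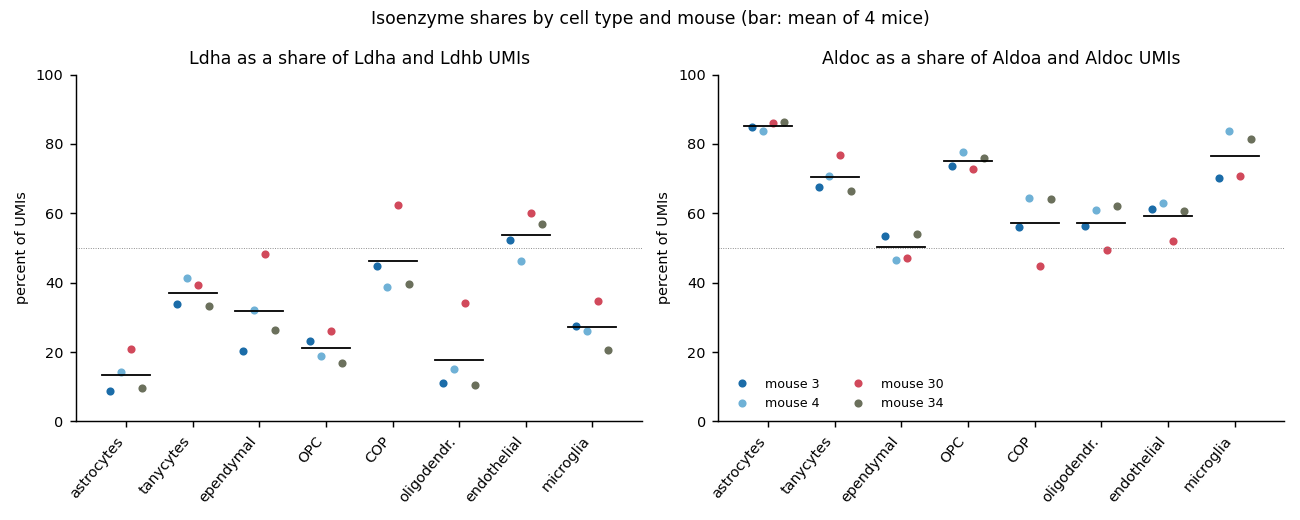
The share of Ldha in the Ldha and Ldhb UMIs (left) and of Aldoc in the Aldoa and Aldoc UMIs (right) is given in percent for each of 8 cell types; points are mice, bars the means of 4 mice, and the dotted line marks equal shares. The Ldha share runs from 13.4% in astrocytes to 53.8% in endothelial cells, and the Aldoc share from 50.3% in ependymal cells to 85.2% in astrocytes.

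Pdk4, a kinase that inhibits pyruvate dehydrogenase and so holds pyruvate back from the mitochondrion, was the lowest of the 10 genes in UMIs. Astrocytes held 22.7, 11.6, 14.0 and 18.0 CPM on 102 UMIs, and tanycytes 14.3, 7.94, 16.9 and 21.9 CPM on 91 UMIs. Both types overlapped (edgeR adjusted p = 0.508). Endothelial cells held 10.7 ± 1.92 and ependymal cells 9.02 ± 6.34 CPM (SD, n = 4), on 17 and 24 UMIs, and oligodendrocytes 5.21 ± 2.42 CPM on 31. Committed precursors gave 0 of 1277887 UMIs, with a floor of 2.35 CPM (3 UMIs) and an upper end of the exact 95% Poisson interval of 2.89 CPM. Microglia gave 1 UMI.

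Levels in the vascular leptomeningeal cells rested on 6, 12, 44 and 6 cells and were not tested. Pooled over mice they held 530.7 CPM of Aldoa (exact 95% Poisson interval 410.5 to 675), 306 CPM of Ldhb (216 to 419), 209 CPM of Ldha (137 to 306) and 32.2 CPM of Slc2a1 (8.76 to 82.4), with 44 of the 68 cells from mouse 30.

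In all, 7 comparisons between pairs of types were then made across all genes, with edgeR's quasi-likelihood test on the sums, the mouse as a block, and normalization of library composition by TMM. A gene was called when its adjusted p was below 0.05 and its absolute log2 fold change above 1. A gene could pass edgeR's filter on low counts by 1 type alone, and could then hardly be called other than higher in that type. The cell types had been defined by the authors from expression, so the p-values do not allow for that choice. With the mouse as a block, they rest on how the difference between types varied within these 4 mice. The variance estimates of edgeR draw partly on other genes. The log2 fold changes were computed after TMM and the CPM levels were not, so a log2 fold change can differ from the ratio of the levels.

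Against ependymal cells, tanycytes were higher in Aldoc, Ldha, Pfkm and Ldhb and lower in Slc2a1. Of the 10 genes, 5 were called, against 19.8% of all 8781 genes tested. The 4 higher calls stood against a background of 6.73% and the 1 lower call against 13.1%. The log2 difference was 1.94 ± 0.11 for Aldoc, 1.60 ± 0.13 for Ldha, 1.31 ± 0.19 for Pfkm, 1.21 ± 0.10 for Ldhb and -2.11 ± 0.12 for Slc2a1 (SE), in the same direction in 4 of 4 mice for each, with edgeR adjusted p from 3.58e-19 for Aldoc to 1.21e-07 for Pfkm. Slc16a1, at -0.94, was inside the fold limit and past it with library totals in place of TMM (-1.03), and Pdk4, at 0.72, was past the limit and the adjusted p without mouse 3 (1.04). At the adjusted p alone, 8 of 10 genes passed, against 46.3% of all. The median over the 10 genes was 0.72, beside 0.03 over all genes. The ependymal levels of Aldoc and Pfkm lay, as shares of their astrocyte levels, under that of the summed astrocyte markers given above. Of 65 further genes of the same pathways, 42 were tested, 4 were higher and 3 lower. Among them Tpi1, the triose phosphate isomerase of glycolysis, was higher by 1.27 ± 0.10 (466 against 201 CPM) and Emb, a partner protein of monocarboxylate transporters, lower, at -2.58 ± 0.21 (14.5 against 87.2 CPM). Pdk1, another pyruvate dehydrogenase kinase, was at -1.37 (17.2 against 47.2 CPM), Slc2a12, a glucose transporter, at -1.30, and Pdk3 and Rpe were higher by 1.35 and 1.13 on the log2 scale.

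Against astrocytes, tanycytes were higher in Ldha and lower in Slc2a1 and Pfkm. These 3 of 10 genes were called, against 21.1% of 10081 genes tested (10.1% higher and 11% lower). The log2 difference was 1.36 ± 0.10 for Ldha, -1.25 ± 0.11 for Slc2a1 and -1.28 ± 0.11 for Pfkm (SE), each in 4 of 4 mice, with edgeR adjusted p of 6.63e-14, 7.93e-12 and 8.25e-13. Aldoc at -0.80, Ldhb at -0.70 and Aldoa at 0.48 passed the adjusted p but not the fold limit, and 7 of 10 genes passed the adjusted p alone, against 51.6% of all. The median over the 10 genes was -0.23, beside -0.01 over all genes. Of the 65 further genes, 50 were tested, 2 were higher and 17 lower, with a median of -0.42. Of the glycogen genes among these, 6 of 10 tested were lower and 1 higher, Ppp1r3d, a targeting subunit of the glycogen phosphatase, being at -2.97 and Pygl, the liver-type glycogen phosphorylase, higher by 1.10 ± 0.26. Slc16a6 and Slc2a4 were at -2.76 and -2.78 on the log2 scale (6.88 against 41.1 CPM and 1.90 against 12.8 CPM), and Pdk3 was higher by 2.27 ± 0.38 (12.8 against 2.07 CPM).

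Astrocytes exceeded ependymal cells in Aldoc, Pfkm and Ldhb, by 2.76 ± 0.12, 2.61 ± 0.17 and 1.94 ± 0.12 on the log2 scale (SE), in 4 of 4 mice each, with edgeR adjusted p of 1.54e-13, 5.25e-11 and 1.96e-11. These 3 of 10 genes were called, all higher, against 31.8% of 8371 genes tested (14.3% higher and 17.6% lower). The share of calls was near the background, and none of the 10 was called lower. Slc2a1 and Slc16a1 were lower in astrocytes, at -0.86 and -0.91, past the adjusted p but inside the fold limit. Slc2a1 was past that limit without mouse 3 (-1.07), and Slc16a1 with library totals in place of TMM (-1.03) and without mouse 4 (-1.02). At the adjusted p alone, 6 of 10 genes passed, against 56.9% of all, a share near the background. The median over the 10 genes was 0.28, beside 0.02 over all. Of 40 further pathway genes tested, 14 were higher and 3 lower, with the muscle-type glycogen phosphorylase Pygm higher by 3.20 ± 0.25 (75.9 against 9.09 CPM), Pgm2 by 2.70 ± 0.16 and Slc16a6 by 2.42 ± 0.32. Emb, Pgm1 and Pdk1 were lower, at -2.97, -1.33 and -1.09 on the log2 scale, Pgm1 in 3 of 4 mice.

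Endothelial cells exceeded astrocytes in both transporters and in Ldha, and were lower in Ldhb, Pfkm and Aldoc. Slc2a1 was higher by 3.37 ± 0.11 and Slc16a1 by 1.96 ± 0.15 on the log2 scale (SE), each in 4 of 4 mice (edgeR adjusted p = 2.54e-36 and 4.10e-18). Ldha was higher by 1.16 ± 0.13, which became 0.92 without mouse 34, under the fold limit. Ldhb was at -2.02, Pfkm at -2.15 and Aldoc at -2.37 (edgeR adjusted p of 1.27e-23, 1.59e-17 and 2.97e-29). In all, 6 of 9 genes tested were called, 3 in each direction, against 35% of 7616 genes tested (17.2% higher and 17.8% lower), and Pdk4 was too low to test. At the adjusted p alone, 7 of the 9 passed, against 60.5% of all. Of 37 further genes tested, 2 were higher and 18 lower: Bsg, which encodes basigin, the partner that carries MCT1 to the membrane, stood at 5230.2 against 267 CPM, 4.25 ± 0.11 higher, and the glycogen branching enzyme Gbe1 was higher by 1.94 ± 0.27. All 8 glycogen genes tested were called, Gbe1 upward and 7 downward, with Pygb at -2.36 (71.2 against 389 CPM) and Pgm2 at -2.70. Slc16a6 was at -3.04 on the log2 scale.

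Oligodendrocytes were lower than astrocytes in 6 of the 10 genes and higher in none, against 30.5% of 9730 genes tested called in either direction and 18% lower. The log2 difference was -2.27 ± 0.13 for Pfkm, -1.98 ± 0.10 for Aldoc, -1.56 ± 0.30 for Pdk4, -1.43 ± 0.10 for Ldhb, and -1.05 for both Hk1 and Ldha with SE 0.15 and 0.14, in 4 of 4 mice each, with edgeR adjusted p from 1.18e-21 for Aldoc to 2.09e-05 for Pdk4. Pdk4, counted among these 6, had only 31 UMIs in oligodendrocytes, 2 to 14 per mouse, and 102 in astrocytes. It passed edgeR's filter on low counts by its astrocyte counts, so it could hardly be called other than lower. Ldha lay at the fold limit: it was -1.22 without mouse 30 and between -0.97 and -0.998 without each of the other mice, so the call did not hold in those 3 cases, nor with sums thinned to equal depth (-0.90). Hk1 was -0.95 without mouse 4. Slc2a1 was at -0.95, inside the fold limit, and past it with library totals (-1.12), thinned sums (-1.08), the filter of 50 CPM in 3 sums (-1.15) and without mouse 34 (-1.02). Slc16a1, by contrast, was higher in oligodendrocytes by 0.61 ± 0.15 in 3 of 4 mice, mouse 30 being the exception (45.3 against 54.0 CPM), inside the fold limit (edgeR adjusted p = 4.42e-04), and 9 of 10 genes passed the adjusted p alone, against 60.1% of all. The median over the 10 genes was -1.05, beside -0.01 over all. Of 50 further pathway genes tested, 2 were higher and 22 lower. Taldo1, the transaldolase of the pentose phosphate pathway, was higher by 2.92 ± 0.11 (524 against 78.9 CPM) and Pdk3 by 2.78 ± 0.36, while Pygl, Slc2a4 and Ppp1r3d were lower, at -3.24, -2.94 and -2.89.

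Oligodendrocyte precursor cells were lower than oligodendrocytes in both transporters and higher in Pfkm. Slc16a1 was lower in the precursors, at -1.70 ± 0.24, and Slc2a1 at -1.31 ± 0.22 on the log2 scale (SE), and Pfkm was higher by 1.16 ± 0.19, each in 4 of 4 mice (edgeR adjusted p of 5.21e-10, 1.96e-07 and 4.80e-08). These were 3 of 9 genes tested, 1 higher and 2 lower, against 28% of 6497 genes tested (15.2% higher and 12.8% lower), a share near the background. Pfkm fell to 0.95 without mouse 4. With library totals in place of TMM the median of all genes in this comparison moved by 0.42 and the share of calls that were higher rose from 54.3% to 72.3%. Slc2a1 was then at -0.89, under the fold limit, and Slc16a1 at -1.28, while Ldha and Hk1 were higher by 1.30 and 1.01, past it. Slc2a1 was also under the limit with thinned sums (-0.94), and Ldha past it without mouse 30 (1.11). Aldoa at -0.72 and Ldha at 0.89 were past the adjusted p alone, which 8 of the 9 genes passed, against 55.1% of all. Of 28 further genes tested, 2 were higher and 3 lower. Slc2a3, a high-affinity glucose transporter, was higher by 2.01 ± 0.36 (31.2 against 5.19 CPM), Eno1 by 1.25 ± 0.12, and Taldo1, Tkt and Mpc1 were lower, at -2.19, -1.14 and -1.12.

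Microglia were lower than astrocytes in Aldoc, Pfkm and Slc2a1. The log2 difference was -1.63 ± 0.14 for Aldoc, -1.52 ± 0.31 for Pfkm and -1.15 ± 0.34 for Slc2a1 (SE), each in 4 of 4 mice (edgeR adjusted p of 1.48e-19, 2.25e-05 and 0.00285). They were 3 of 9 genes tested, none higher, against 37.8% of 4778 genes tested (20% lower), a share near the background, and 5 passed the adjusted p alone, against 45.7% of all. Slc2a1 was -0.96 without mouse 4, in which 34 microglia gave no UMI of the gene. Slc16a1, at -1.18, missed the adjusted p and passed it under 4 alternatives, with values from -1.92 without mouse 30 to -1.35 with library totals. Ldhb, at -0.80, and Aldoa, at -0.73, were inside the fold limit and past it with thinned sums (-1.07 and -1.14), where Slc2a1 and Pfkm were too low to test, and with every gene of at least 1 UMI tested (-1.12 and -1.06), and Ldhb also with 1 fit over all types (-1.06). Of 27 further genes tested, 4 were higher and 8 lower. Hk2, the inducible hexokinase, stood at 302 against 17.1 CPM, 4.47 ± 0.28 higher, Slc16a6 was higher by 2.05 ± 0.30 and Pfkfb3, which makes an activator of phosphofructokinase, by 1.61 ± 0.30, while Pcx, Pygb and Pgm2 were lower, at -2.99, -2.56 and -1.92. All 6 glycogen genes tested were lower.

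**Figure D4:**
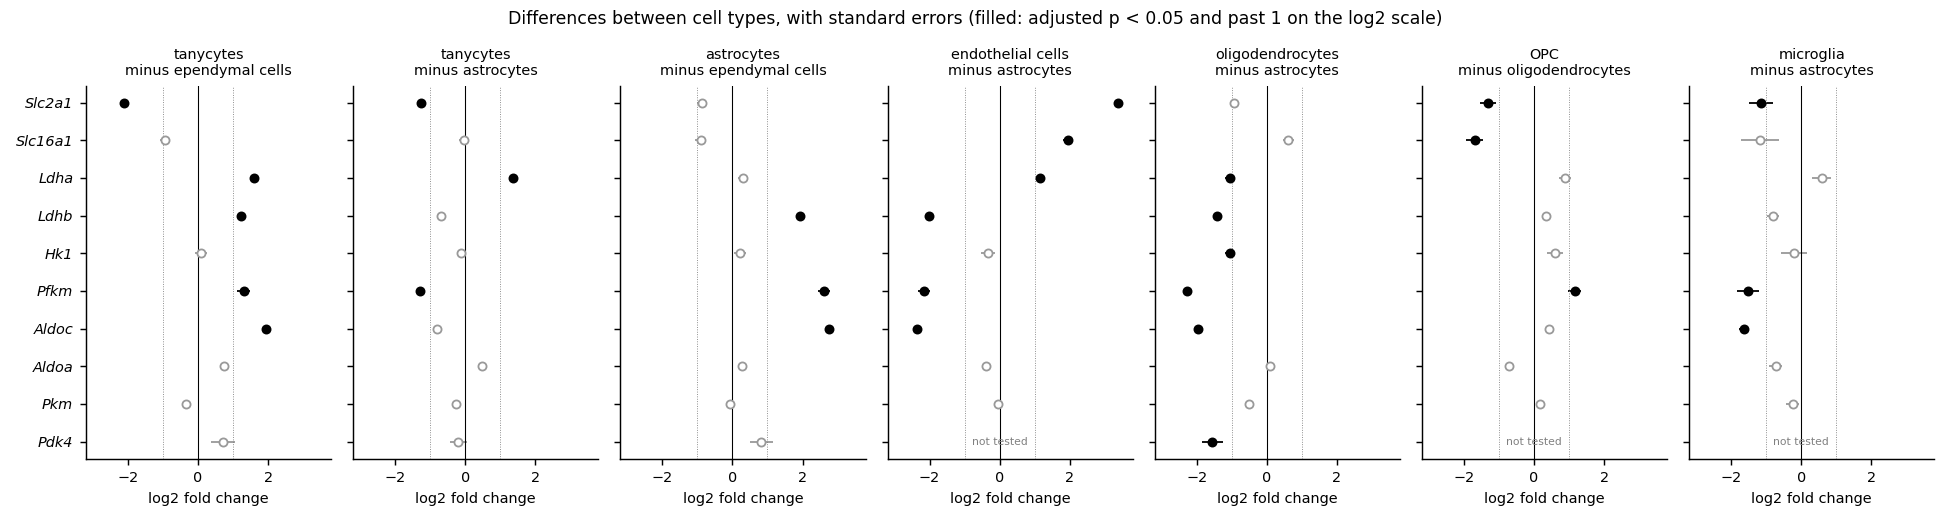
Each panel gives 1 comparison of 2 cell types, with the log2 fold change on the horizontal axis and 1 row per gene; bars are standard errors, filled points passed the adjusted p and the fold limit (dotted lines), and genes too low to test are marked. Slc2a1 ranges from -2.11 in tanycytes against ependymal cells to 3.37 in endothelial cells against astrocytes, while no Pkm point is filled.

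The comparisons with astrocytes share the astrocyte sums, so their values are not independent of each other. The profiles of Aldoc, Pfkm and Ldhb over the 8 type means were alike (Pearson r = 0.95 for Aldoc with Ldhb, 0.95 for Aldoc with Pfkm and 0.90 for Ldhb with Pfkm, log2 scale). Among 6580 genes with at least 50 CPM in at least 1 type, those most like Aldoc were Slc1a3 (r = 0.96), Slc1a2 (0.96) and Ldhb (0.95). Those most like Slc2a1 were Itih5 (0.98), Slc30a1 (0.97) and Igf1r (0.96), each highest in endothelial cells. Those most like Slc16a1 were Nbeal1 (0.96), Serpinb6a (0.95) and Pdxk (0.94), those most like Ldha were Ddx50 (0.97), Polr2m (0.92) and Psme2 (0.91), and those most like Aldoa were Gclm (0.97), Fam189a2 (0.95) and Fbxo2 (0.94). Pfkm went with Tmx3 (0.96) and Slc1a2 (0.95), Ldhb after Aldoc with Mras (0.92) and mt-Nd6 (0.92), Hk1 with Suclg2 (0.96) and Nmt2 (0.96), and Pkm with Tm9sf2 (0.98) and Mark3 (0.95). These correlations describe 8 points from the same libraries.

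The mice themselves differed in Ldha in a way shared by the cell types. Mouse 30 had the highest Ldha level of the 4 mice in 8 of 8 types, at 1.12 to 3.27 times the mean of the other 3, with a median ratio of 1.61. Aldoa was highest in mouse 30 in 5 of 8 types, with a median ratio of 1.17, and Slc2a1 in 5 of 8. Ldhb went the other way, mouse 30 being lowest in 5 of 8 types at a median ratio of 0.811 and mouse 3 highest in 6 of 8. Ldha was not alone in an order shared by all types. Mouse 4 lay above the mean of the other mice for Slc16a1 in 8 of 8 types (median ratio 1.25), and mouse 34 for Ldhb in 8 of 8 (1.10). All the genes and mice were looked over before these were named. Pkm showed no such order, mouse 30 being highest in 1 type and lowest in 2, with a median ratio of 1.00. Mice 30 and 4 gave the fewest cells and the lower median UMIs per cell in 5 of 8 types, for example a median of 932 and 958 in tanycytes against 1205 and 1208 in mice 3 and 34. The part of depth in the mouse differences was not tested. The types of 1 mouse came from 1 library, so any free RNA would be common to them, and they are not replicates of a difference between mice.

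**Figure D5:**
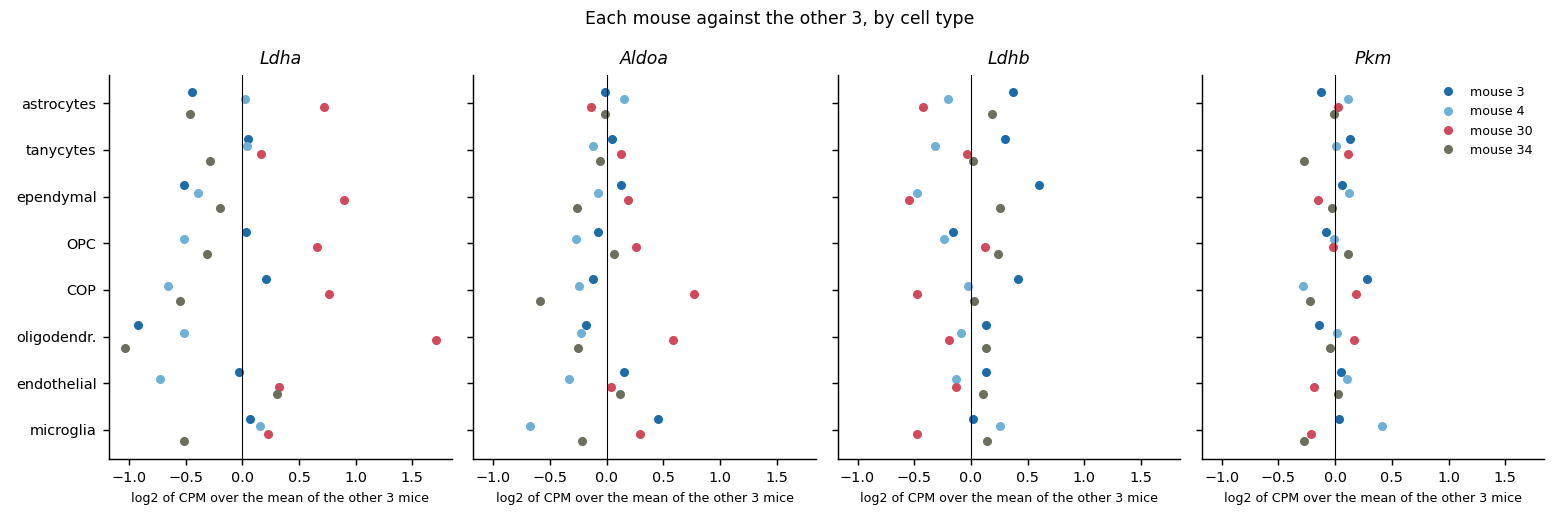
For 4 of the genes, each point gives 1 mouse in 1 cell type as the log2 of its level over the mean of the other 3 mice, on 1 common horizontal scale. Mouse 30 lies right of 0 for Ldha in all 8 types and left of 0 for Ldhb in 7 of 8, while its Pkm points lie on both sides.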

How the data were processed

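Single cells of the hypothalamus were measured with a 10x 3′ v2 kit. The deposited table holds raw UMI counts per gene and cell, and the processing notes of the submitters name Cell Ranger 1.2 and Seurat, with cell filters not given in the sources used here. The authors also deposited a cell type label, the percent of mitochondrial UMIs (at most 19.983) and a doublet score for each cell (at most 0.652). No doublet caller and no further filter was applied. The labels list 6 mice, and mice 12 and 37 were not analysed here. The 12 other libraries of the table, with 50172 cells, were not used because the labels assign them to no group.

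For each mouse, the counts of all cells of a type were added up with Python 3.11.15 and pandas 2.3.3. The 8 types that had 20 or more cells in each of the 4 mice were compared in 28 pairs with edgeR 4.0.16 in R 4.3.3 (quasi-likelihood test, TMM, edgeR's default filter on low counts, mouse as block because both types come from the same animals), with Benjamini-Hochberg adjustment over all genes tested in a pair. Levels are CPM before TMM, and intervals and floors cover counting error only, a floor being 3 UMIs per sum of a type. In simulated counts for each of the 7 comparisons, 93% of 4-fold changes were called in microglia against astrocytes (4778 genes) and 99% to 100% in the other 6. Changes of 2-fold passed the adjusted p in 50% to 90%. The simulation gave both types 1 mean profile, changed a small set of genes in both directions and held no mouse effect. Many more genes differed between the real types, so these rates do not give the power there. The 10 genes and all gene lists were chosen with earlier results of these data known. Further pathway genes were named as the 3 called genes of largest and the 3 of smallest log2 fold change in each comparison. Likeness was the Pearson correlation of log2(CPM + 1) over 8 type means. Alternatives were DESeq2 1.42.0, library totals without TMM, other filters, thinned sums, deeper cells only, 1 fit over all types, no block, pooled UMIs, no fold limit and leaving out each mouse.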

Additional observations from a re-analysis of the deposited data

Results flagged for a closer look

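Among 80 gene levels and 16 isoenzyme shares by cell type, 96 groups of 4 mice in all, there were 7 (7.29%), all of them gene levels, in which 1 mouse stood apart from the other 3 by Dixon's criterion, which chance gives in about 5% of groups. Of these, 5 were in mouse 30 and 4 of the 5 in its oligodendrocytes. There, Ldha was 117 CPM against 31.4 to 42.6 in the other mice, Aldoa 586 against 384 to 399.7, and Slc2a1 76.1 against 56.1 to 57.4 on 37 UMIs. Slc16a1 was instead low in the same cells, 45.3 CPM against 59.6 to 62.5, on 22 UMIs. Mouse 30 also had the highest endothelial Slc2a1, 1875 CPM against 1243 to 1321. The remaining values rest on few UMIs: Hk1 in microglia of mouse 34 was 67.4 CPM on 8 UMIs against 40.6 to 45.0, and Pdk4 in microglia of mouse 3 was 7.49 CPM on 1 UMI, with 0 in the other mice.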

How the results depend on the processing

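The counts of called genes were the same with DESeq2, with cells under 800 UMIs left out, with the stricter filter of 50 CPM in 3 sums, and with no replicate block, which gave 5, 3, 3, 6, 6, 3 and 3 genes in the order of the comparisons above. With DESeq2, with cells under 800 UMIs left out and with no replicate block these were the same genes. With the stricter filter, Pdk4 was no longer tested in oligodendrocytes against astrocytes and Slc2a1, at -1.15, was called in its place. With no fold limit the counts were 8 for tanycytes against ependymal cells (46.3% of all genes), 7 for tanycytes against astrocytes (51.6%), 6 for astrocytes against ependymal cells (56.9%), 7 for endothelial cells (60.5%), 9 for oligodendrocytes (60.1%) and 5 for microglia against astrocytes (45.7%), and 8 for oligodendrocyte precursor cells against oligodendrocytes (55.1%). The microglial count was also 7 with every gene of at least 1 UMI tested and 5 with 1 fit over all types. Leaving out each mouse gave 5 to 6, 3 to 3, 3 to 4, 5 to 6, 4 to 6, 2 to 4 and 2 to 4 called genes in that order.

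Among single log2 differences, those that changed sign were all small and uncalled. Hk1 in tanycytes against ependymal cells was -0.00883 with library totals in place of TMM, -0.19 with thinned sums, and -0.0304 to 0.17 without each mouse. Against astrocytes, tanycyte Slc16a1 was -0.17 to 0.0449 and Pdk4 -0.50 to 0.10 without each mouse. In astrocytes against ependymal cells, Hk1 was -0.0220 with thinned sums, and Pkm 0.0524 with the stricter filter, 0.0994 with thinned sums and 0.00798 without cells under 800 UMIs. Pkm in endothelial cells was -0.11 to 0.000172 without each mouse. Aldoa in oligodendrocytes against astrocytes was -0.0738 with library totals, -0.0936 with the stricter filter and -0.00591 to 0.18 without each mouse. The cause was not tested. Depth was low for Pdk4, with at most 102 UMIs in a type, and for microglia, with 395534 UMIs in all, and vascular leptomeningeal cells, with 124361.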

Other observations

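Glycogen genes, a list of 12 beside the 10 genes of the report, were mostly higher in astrocytes than in the 5 types compared with them. Against astrocytes, 9 of 10 tested were lower in oligodendrocytes, 7 of 8 in endothelial cells, 6 of 6 in microglia and 6 of 10 in tanycytes, against 18%, 17.8%, 20% and 11% of all genes called lower, with median log2 differences of -2.23, -1.92, -1.80 and -1.25 beside -0.01, -0.02, -0.08 and -0.01 over all genes (edgeR). Astrocytes were higher than ependymal cells in 6 of 9 tested and lower in 1, against 14.3% and 17.6% of all genes, with a median of 1.13. Between tanycytes and ependymal cells none of 9 tested was called, against 19.8% of all genes, although 3 passed the adjusted p alone, against 46.3%, and between oligodendrocyte precursor cells and oligodendrocytes none of 5, against 28%, of which 1 passed the adjusted p alone, against 55.1%. The list was chosen with earlier results of these data known, the comparisons with astrocytes share their astrocyte sums, and the median describes only the genes tested.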
